A study of Drosophila melanogaster with 8 samples.

Results

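The genes of the 3 yolk proteins (Yp1, Yp2 and Yp3), of the storage protein Lsp2 and of the female satiety peptide fit were followed in head RNA of Drosophila melanogaster females in reproductive diapause and of females that were not. They were chosen by gene symbol, as the probe sets that the annotation of the array assigns to exactly 1 of these symbols. Each symbol had 1 such probe set, so the 5 genes were 5 of the 11982 genes measured. The females were of the wild-type strain Canton S. From at most 8 h after eclosion they lived at 12.5 °C with 14 h of light and 10 h of darkness a day, and 12 days later part of them had arrested ovaries. The diapause group held females with arrested ovaries, the non-diapause group females kept in the same light, temperature and age whose ovaries developed, and each group had 4 one-colour arrays, which limits the precision. Whether the 4 arrays of a group stand for separate cultures is not described, and the p-values therefore reflect array-to-array spread that may be technical.

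Yolk proteins are taken up by the growing oocyte and feed the embryo. In Drosophila they are made by the fat body, the tissue that stores fat and secretes the proteins of the blood, and by the follicle cells of the ovary, under the control of the female form of the sex determination factor dsx, of juvenile hormone and of ecdysone. They are related in sequence to lipases. The fat body reaches into the head, where it surrounds the brain, and heads therefore hold yolk protein transcripts without any ovarian tissue. Lsp2 is a hexamerin, a large storage protein of the blood that the fat body makes in late larvae and again in adults. The peptide encoded by fit is secreted by the fat body of the head, mainly in females, and lowers protein appetite after a meal rich in protein.

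All 5 genes had a lower mean in diapause than in non-diapause heads. The differences, given throughout as diapause minus non-diapause on the log2 scale with SE, ran from -0.84 ± 0.31 for fit through -0.37 ± 0.09 for Yp2, -0.33 ± 0.05 for Lsp2 and -0.26 ± 0.06 for Yp3 to -0.07 ± 0.02 for Yp1 (4 arrays per group). No gene passed limma with Benjamini-Hochberg adjustment over all 18769 tested probe sets, where 0.0% were called lower at adjusted p under 0.05. The smallest adjusted p among the 5 was that of Lsp2 (limma adjusted p = 0.510), and the other 4 had 1.0. At the unadjusted threshold of the study, p under 0.01, 3 of the 5 were lower in limma, namely Lsp2, Yp3 and Yp2, against 0.607% of all probe sets. At p under 0.05 all 5 were lower, against 2.09% of all probe sets. The diapause and non-diapause arrays did not overlap for 4 of the 5, all but fit, against 1.44% of all probe sets that were lower without overlap. The genes were proposed with results of these data in view, so these shares are no independent support. The count of the 5 at p under 0.01 was 1 without diapause 1, diapause 2, diapause 4 or non-diapause 3, and 2 without non-diapause 1.

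**Figure D1:**
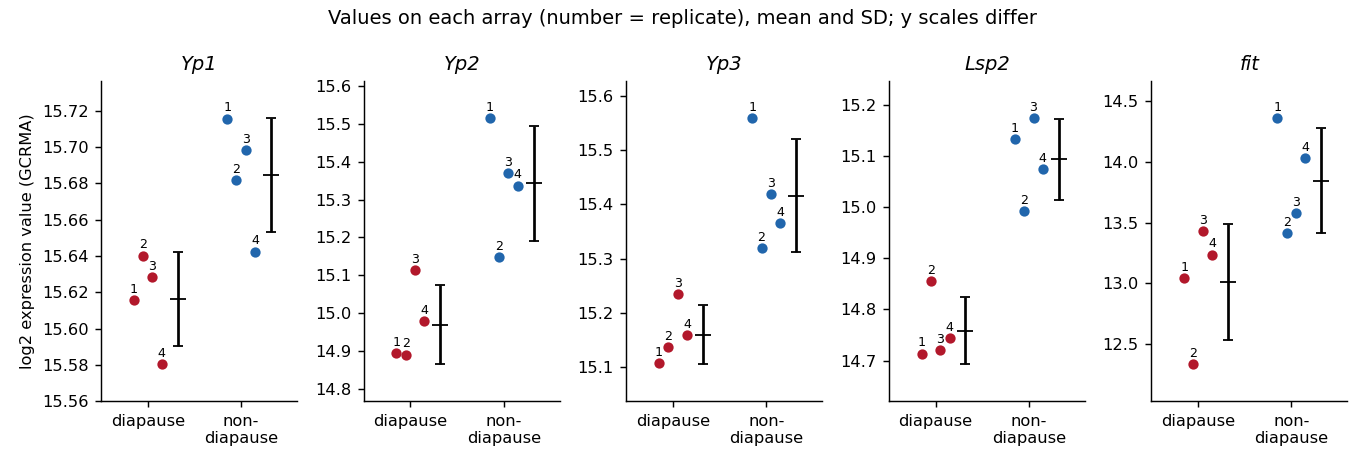
Log2 expression value of each gene on each array (points, numbered by replicate) with the mean and SD of each group, diapause to the left of non-diapause and a separate vertical scale for each gene. The 4 diapause arrays lie below the 4 non-diapause arrays for Yp1, Yp2, Yp3 and Lsp2, and for fit diapause 3 reaches the level of non-diapause 2.

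Yp1 and Yp2 are neighbours on the X chromosome, with 0 annotated genes between them in Release 6 of the genome, and Yp3 lies elsewhere on the X. Of the yolk protein genes, Yp2 differed most. Its log2 values on diapause 1 to 4 were 14.89, 14.89, 15.11 and 14.98, against 15.52, 15.15, 15.37 and 15.34 on non-diapause 1 to 4. Diapause 3 and non-diapause 2 came closest to each other, 0.035 apart. The group means were 14.97 ± 0.10 in diapause, against 15.34 ± 0.15 in non-diapause heads (SD, n = 4 each). On the linear scale this was 0.771 of the non-diapause level, with a 95% interval of 0.664 to 0.896 (limma p = 0.00519, adjusted p = 1.0, exact permutation p = 0.0286). The exact test was two-sided, and its p was the smallest that 4 against 4 arrays allow.

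Yp3 followed nearly the same order of arrays with a smaller span. It stood at 15.11, 15.14, 15.23 and 15.16 on diapause 1 to 4, against 15.56, 15.32, 15.42 and 15.37 on non-diapause 1 to 4. The highest diapause array was again diapause 3 and the lowest non-diapause array non-diapause 2, and 0.085 separated them. The level in diapause was 0.837 of that in non-diapause heads (95% interval 0.760 to 0.921, limma p = 0.00366, adjusted p = 1.0, exact permutation p = 0.0286).

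Yp1 was nearly level. Its log2 values were 15.62, 15.64, 15.63 and 15.58 on diapause 1 to 4, against 15.72, 15.68, 15.70 and 15.64 on non-diapause 1 to 4. Diapause 2 and non-diapause 4 were 0.0021 apart, the narrowest gap among the 4 genes without overlap. In diapause Yp1 was 4.63% lower (95% interval of the ratio 0.923 to 0.986, limma p = 0.0125, adjusted p = 1.0, exact permutation p = 0.0286). The limma p of Yp1 was 0.217 when dim probe sets (mean under 4) were left out of the fit and 0.107 when the prior spread followed the signal (limma-trend).

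Lsp2 had the clearest separation of the 5 relative to its spread. On diapause 1 to 4 it was 14.71, 14.86, 14.72 and 14.74, against 15.13, 14.99, 15.17 and 15.07 on non-diapause 1 to 4. The highest diapause array was diapause 2, not diapause 3 as for Yp2 and Yp3, and it lay 0.14 below the lowest non-diapause array, non-diapause 2. Lsp2 stood at 0.793 of its non-diapause level (95% interval 0.729 to 0.862, limma p = 4.40e-04, adjusted p = 0.510, exact permutation p = 0.0286). By p it ranked 14 among all probe sets lower in diapause. With each array left out in turn its limma p was 3.10e-04 to 0.00204.

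The satiety peptide gene fit had the largest difference and the widest spread. Its log2 values were 13.05, 12.33, 13.43 and 13.24 on diapause 1 to 4, against 14.36, 13.41, 13.58 and 14.03 on non-diapause 1 to 4. Diapause 2 was the lowest and non-diapause 1 the highest array, and 2.03 on the log2 scale lay between them. Diapause 3 stood just above non-diapause 2, so the groups overlapped. The level of fit in diapause was 0.560 of its non-diapause level, with a 95% interval of 0.331 to 0.948 (limma p = 0.0355, adjusted p = 1.0, exact permutation p = 0.0571). Leaving out single diapause arrays gave a limma p of 0.0669 (array 1, difference of -0.85) and 0.0651 (array 2, -0.61). Leaving out single non-diapause arrays gave 0.0837 (array 1, -0.66) and 0.0824 (array 4, -0.77), and p was under 0.05 for the other 4 omissions.

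Whether the 5 genes differed in the size of their group difference was tested within arrays, as the difference between 2 genes on each array, for all 10 pairs. An exact two-sided permutation test over the 70 ways of dividing 8 arrays was used, whose smallest possible p is 0.0286. Yp3 minus Yp1 was -0.46 ± 0.06 in diapause, against -0.27 ± 0.09 in non-diapause heads (SD, n = 4 each; exact p = 0.0286), and Lsp2 minus Yp1 was -0.86 ± 0.06 in diapause, against -0.59 ± 0.07 in non-diapause heads (exact p = 0.0286). These 2 pairs were the ones without overlap between the groups. Both were taken against Yp1, which lay within 0.039 of the brightest probe set on every array, and whether Yp1 could differ further at that signal was not tested. Yp2 minus Yp1 (-0.31, the difference of the 2 group differences), fit minus Yp1 (-0.77) and Yp2 minus Yp3 (-0.12) each gave an exact p of 0.0571. After Benjamini-Hochberg adjustment over the 10 pairs, 0 pairs passed, the smallest adjusted p being 0.114. Yp2 and Lsp2 were the closest pair. Their difference of differences was -0.04 (exact p = 0.686) and lay between -0.10 and 0.02 when each array was left out, turning to positive without diapause 2 or non-diapause 1. The difference of fit was larger than that of Yp2 (-0.46, exact p = 0.143), Lsp2 (-0.50, exact p = 0.200) and Yp3 (-0.58, exact p = 0.114). With 4 arrays per group none of these pairs had an exact p under 0.05.

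**Figure D2:**
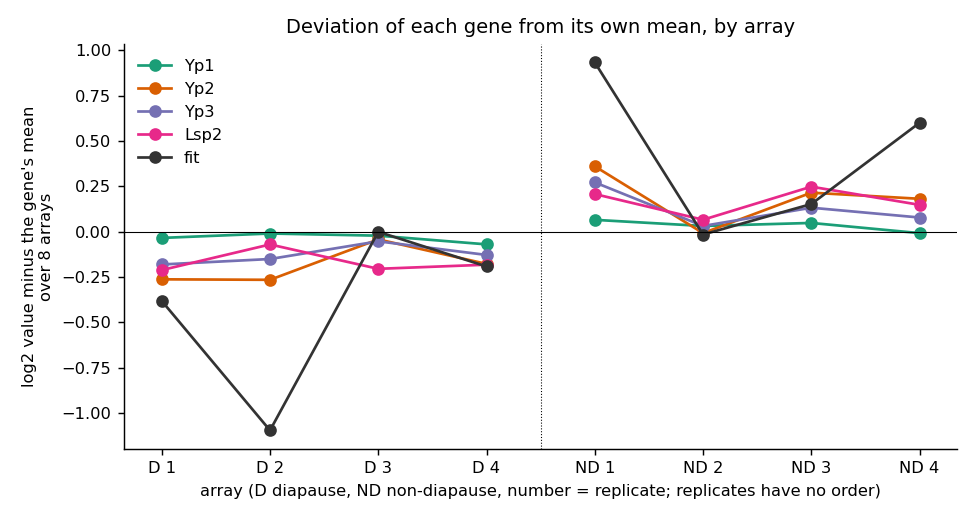
Log2 value of each gene minus its own mean over the 8 arrays, for diapause (D) and non-diapause (ND) arrays, whose replicate numbers have no order. Yp2 and Yp3 move together, fit has the largest excursions, down to -1.10 on diapause 2 and up to 0.93 on non-diapause 1, and Yp1 stays within 0.07 of its mean.

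Over the 8 arrays the 5 genes covaried. Pearson's r was highest between Yp2 and Yp3 (r = 0.983, exact permutation p = 4.96e-05; Spearman's rho = 0.976, exact p = 3.97e-04), followed by fit and Yp2 (r = 0.900, exact permutation p = 9.67e-04; rho = 0.952, exact p = 0.00114). Of the 10 pairs, 8 passed after Benjamini-Hochberg adjustment over the pairs. The other 2 were fit with Lsp2 (r = 0.624, rho = 0.690, adjusted exact p = 0.112) and fit with Yp1 (r = 0.518, rho = 0.690, adjusted exact p = 0.188). The permutations shuffled all 8 arrays across the groups. The p-values of the 10 pairs therefore also reflect the difference between the groups, not only covariation within them. Leaving out the 2 arrays farthest from the median of the first gene left r between 0.414 and 0.968, with 0.968 for Yp2 and Yp3 and 0.876 for fit and Yp2. For Yp2 and Yp1, r was 0.434 without non-diapause 1 and non-diapause 3, the one pair of arrays left out for these genes.

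A pooled correlation holds the difference between the groups as well as the spread within them. For deviations from the group means, r remained high for Yp2 and Yp3 (0.936), fit and Yp2 (0.782) and fit and Yp3 (0.663). It was 0.509 for Yp3 and Yp1 and 0.468 for Lsp2 and Yp1, 0.392 for Lsp2 and Yp3, 0.340 for Yp2 and Lsp2 and 0.272 for Yp2 and Yp1. For fit it was -0.172 with Yp1 and -0.234 with Lsp2. Within groups, therefore, Yp2, Yp3 and fit were all highest on diapause 3 and non-diapause 1, while Lsp2 was highest on diapause 2 and non-diapause 3. Non-diapause 2 was the lowest non-diapause array for Yp2, Yp3, Lsp2 and fit, and non-diapause 4 for Yp1.

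**Figure D3:**
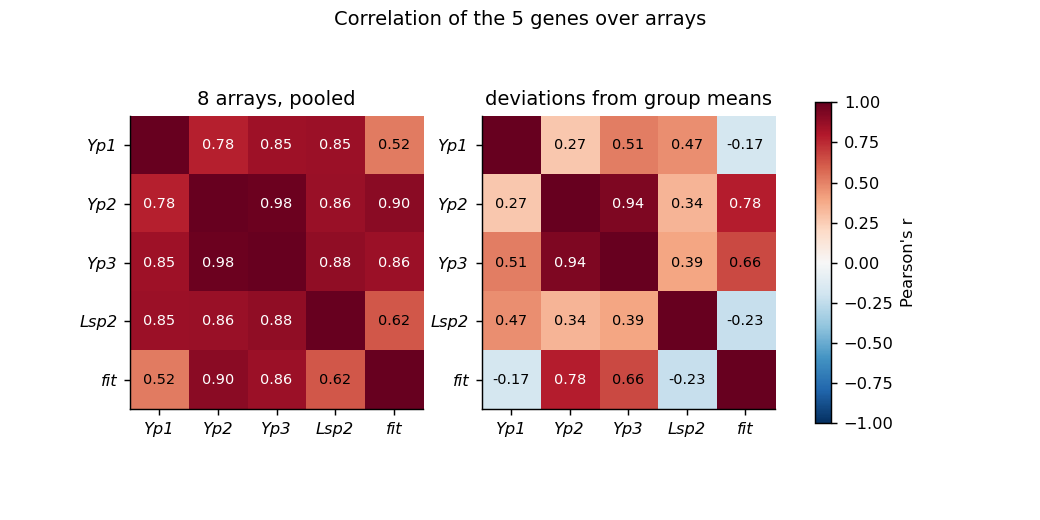
Pearson's r between the 5 genes over 8 arrays, pooled (left) and for deviations from the group means (right), on a colour scale of -1 to 1. All pooled values are positive, whereas within groups only the block of Yp2, Yp3 and fit stays above 0.6.

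The signals of the yolk protein genes and Lsp2 lay near the top of the scale, which ended at 15.72. Yp1 was the brightest or second brightest probe set on every array, at position 1 or 2. Yp3 held positions 10 to 16 on diapause and 5 to 7 on non-diapause arrays. Yp2 held positions 17 to 36 on diapause and 6 to 15 on non-diapause arrays, and Lsp2 positions 40 to 65 on diapause and 12 to 32 on non-diapause arrays. The signal of fit was lower, at positions 280 to 580 on diapause and 120 to 265 on non-diapause arrays, and 1.35 to 3.31 below the brightest probe set of each array. Signals of different probe sets do not measure relative amounts of transcript, and these positions describe only how near to the top each gene was read.

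Spread narrowed toward the top. The median SD within groups was 0.176 among the 619 other probe sets with a mean of 11 to 12, 0.117 among 186 at 13 to 14, 0.062 among 141 at 14 to 15 and 0.052 among 18 above 15, a thinly filled range. The median size of a group difference was 0.081 at 11 to 12 and 0.048 at 14 to 15. Yp1 had an SD within groups of 0.029, below the median of its range. Yp2 (0.130), Yp3 (0.083) and Lsp2 (0.073) were above theirs, and fit (0.456), at a mean of 13.43, was well above the median of 0.117. Whether signals near the top of the scale were compressed, and its part in the sizes of the 5 differences, was not tested.

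**Figure D4:**
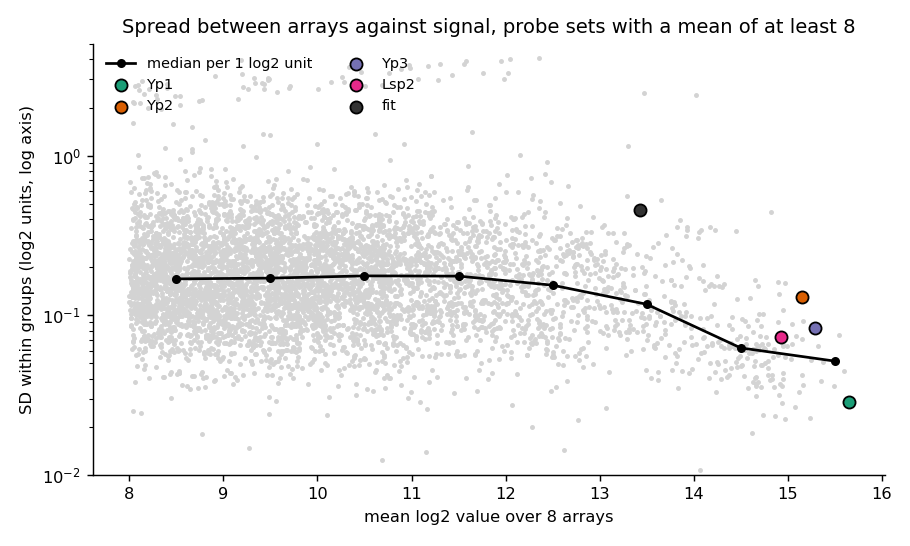
SD within groups in log2 units (log axis) against the mean log2 value for every probe set at 8 or above (grey), with the median per log2 unit (black line) and the 5 genes (coloured). The line turns down above 12, and Yp1 lies below it while Yp2, Yp3, Lsp2 and fit lie above it, fit by the widest margin (SD of 0.456).

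Bright probe sets leaned to lower values in diapause as a whole. Of 159 others at 14 or above, 108 were lower, with a median difference of -0.02, and 4 were lower without overlap. Among the 7593 probe sets at 6 or above, 48.7% were lower. A difference of over 0.3 in either direction, as Yp2 and Lsp2 had, was found in 5 of 141 other probe sets at 14 to 15 and in 0 of 18 above 15. When the arrays were quantile normalized a second time, the differences were -0.30 for Yp2, -0.31 for Lsp2, -0.22 for Yp3, -0.03 for Yp1 and -0.85 for fit.

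Other genes of the fat body mostly had lower means in diapause as well. Of 14 listed, 13 were measured and 12 had a lower mean, with a median difference of -0.26 against 0.0 over all 11982 genes. None passed limma over all probe sets, and 4 of the 13 were lower at p under 0.05, against 2.09% of all probe sets. GLaz, a lipocalin, was 9.68 ± 0.09 in diapause, against 10.05 ± 0.08 in non-diapause heads (SD, n = 4 each; limma adjusted p = 0.602). The triglyceride synthesis gene mdy stood at -0.48 ± 0.13, the receptor of adipokinetic hormone, AkhR, at -0.26 ± 0.09 and apolpp, the lipoprotein that carries fat in the blood, at -0.10 ± 0.04 (SE). The one listed gene with a higher mean was Gnmt, at 0.48 ± 0.44. The mean over the list was 11.99 to 12.39 on diapause arrays and 12.27 to 12.46 on non-diapause arrays. In RNA of whole heads, fewer fat body cells and less RNA per cell cannot be told apart.

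**Figure D5:**
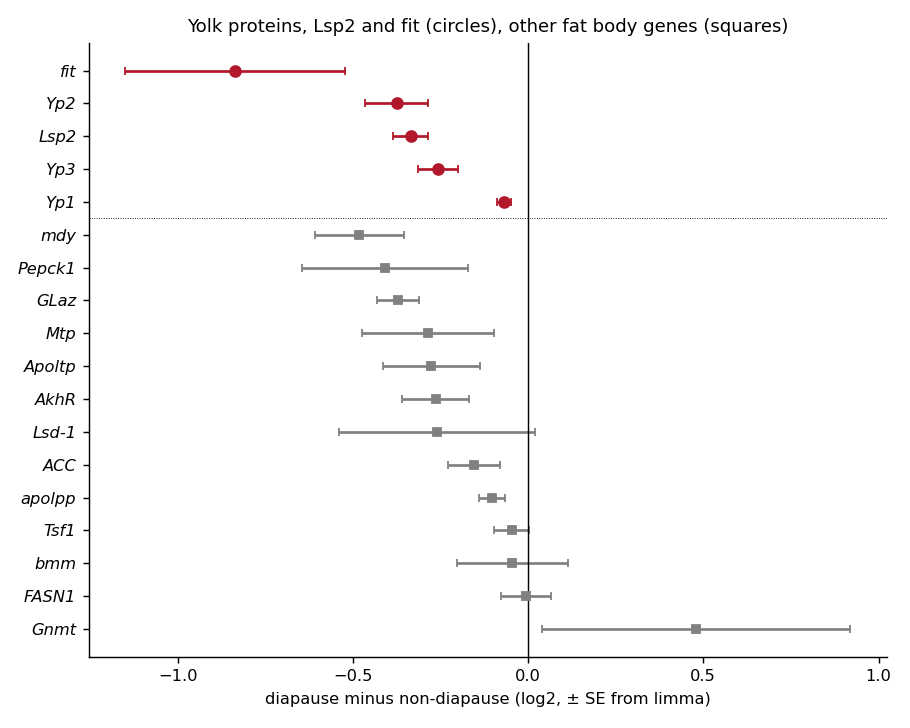
Diapause minus non-diapause on the log2 scale with SE, for the yolk protein genes, Lsp2 and fit (circles) and 13 other fat body genes (squares). All 5 circles and 12 of the 13 squares lie left of 0, and fit, at -0.84, lies farthest left.

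When each array was set against the mean of that fat body list, so that the median difference over all probe sets became 0.17, fit was still the farthest, at -0.66 ± 0.21 (SE, limma adjusted p = 0.287). Yp2 was then at -0.20 ± 0.11, Lsp2 at -0.16 ± 0.13 and Yp3 at -0.09 ± 0.11, and Yp1 turned to 0.10 ± 0.11. The unadjusted limma p was 0.00901 for fit and over 0.05 for the other 4 genes.

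The tissue of origin was checked by markers. Ovary and eggshell genes were close to the floor. The mean over 18 measured markers was 2.22 to 2.25 on diapause and 2.22 to 2.24 on non-diapause arrays, next to the floor of 2.16, and 8 of them, osk and vas included, lay within 0.01 of the floor on every array. Of 10 markers of the male accessory gland and testis 8 lay within 0.01 of the floor on every array, and the list mean was 2.16 in both groups. Cyp4d21, a gene of the male head fat body, had a mean of 2.19 in diapause, against 2.23 in non-diapause heads. By contrast Obp99b, also known from the male head fat body, was bright, at 14.15 ± 0.26 in diapause, against 14.04 ± 0.13 in non-diapause heads (SD, n = 4 each). The remaining measured gene of the list was also above the floor, at 8.28 ± 0.44 in diapause, against 8.47 ± 0.43 in non-diapause heads (SD). Of the 3 measured genes of this male-biased list, 0 had a limma p under 0.05, and their median difference was -0.04.

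All 6 fat body markers, of which all but srp are also in the fat body list above, had lower means in diapause, FASN1 at -0.01 ± 0.07 (SE; list mean 12.24 to 12.69 in diapause, 12.56 to 12.79 in non-diapause heads), and all 6 measured muscle markers had higher means (11.52 to 11.72 in diapause, 11.18 to 11.55 in non-diapause heads). The part of either in the differences of the 5 genes was not tested. Photoreceptor markers stood at 13.83 to 14.16 in diapause, against 13.82 to 14.18 in non-diapause heads, glial markers at 11.90 to 12.05 in diapause, 11.77 to 12.02 in non-diapause heads, and neuronal markers at 7.15 to 8.20 in diapause, 6.92 to 7.98 in non-diapause heads. Midgut proteases set 1 array apart. Their mean was 2.38 on non-diapause 3, against 11.61 to 12.93 on diapause arrays and 12.09 to 13.48 on the other non-diapause arrays. So their mean was high in head RNA on every array but non-diapause 3. Whether RNA from outside the head added to the signals of the 5 genes was not tested. Without non-diapause 3 the differences remained close to those of all arrays, at -0.06 for Yp1, -0.37 for Yp2, -0.26 for Yp3, -0.31 for Lsp2 and -0.92 for fit. The 3 prime minus 5 prime signal of the actin control was 5.04 to 5.90 in diapause, against 5.40 to 5.83 in non-diapause heads (exact p = 0.771). For the GAPDH control it was 1.53 to 2.37 in diapause, against 1.80 to 2.31 in non-diapause heads. For eIF-4a it was 3.31 to 4.52 in diapause, against 3.41 to 4.04 in non-diapause heads (exact p = 0.429). The 3 prime end of these controls was thus the brighter on every array.

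Regulators of the yolk protein genes differed in both directions. Of 18 listed, 16 were measured, 9 with a lower mean, slbo near the floor among them, and 7 with a higher mean, and their median difference was 0.00. The largest difference was that of Sxl, the switch gene of sex determination, at 0.45 ± 0.30, and srp, a GATA factor of the fat body, stood at -0.27 ± 0.14 and Kr-h1, a target of juvenile hormone, at -0.23 ± 0.24 (SE). These 3 were chosen after their values were seen. None passed limma over all probe sets, and 1 had p under 0.05, tra, which directs the female splicing of dsx, at 8.54 ± 0.03 in diapause, against 8.47 ± 0.05 in non-diapause heads (SD, n = 4 each; limma adjusted p = 1.0). Higher values at p under 0.05 made up 0.906% of all probe sets. The transcript of dsx, which encodes the factor that binds the yolk protein enhancers, was 9.11 ± 0.18 in diapause, against 9.45 ± 0.24 in non-diapause heads (-0.35 ± 0.15, SE, limma adjusted p = 1.0).

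Genes of yolk uptake gave no difference past p of 0.05 in limma. The oocyte receptor of the yolk proteins, yl, was at 2.17 on all arrays. Among the 5 measured of 7 listed, the clathrin gene Chc was at 0.08 ± 0.05 and the dynamin gene shi at 0.48 ± 0.26 (SE). Of the genes listed with Lsp2, those of the larval hexamerins Lsp1 were not analysed here, and both that were measured, Fbp1, which encodes the hexamerin receptor, and Fbp2, were near the floor, at 2.16 and 2.17 in diapause, against 2.16 each in non-diapause heads. Among feeding and satiety peptides, 9 of 13 were measured, 5 with a lower and 3 with a higher mean and 1 within 0.01 of the floor, with a median difference of -0.18. None had a limma p under 0.05. CCHa2, a nutrient-dependent peptide of the fat body, stood at -0.26 ± 0.14 and the leucokinin gene Lk at -0.40 ± 0.23 (SE).

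The genes whose values over the 8 arrays most resembled each of the 5 were taken from 6235 genes with a mean of at least 6. These correlations are descriptions over 8 arrays that share the difference between the groups. For fit they were Cyp309a2, a cytochrome P450 (r = 0.989), CG8539 (0.975) and fbp, the gluconeogenic fructose bisphosphatase (0.973). Their r of deviations from the group means was 0.957 to 0.977, on the same arrays that chose them, and their differences were -0.44 ± 0.17, -0.71 ± 0.21 and -0.41 ± 0.11 (SE). For Lsp2 they were Nadk2, a mitochondrial NAD kinase (r = 0.980), the odorant-binding protein gene Obp99a (0.972) and CG34229 (0.965). For these, r of deviations was lower, at 0.743 to 0.836, and the differences were -0.43 ± 0.05, -1.17 ± 0.18 and -0.36 ± 0.06 (SE).

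Yp2 and Yp3 shared rost (r = 0.966 and 0.937) and frma (0.954 and 0.956) among their 3 nearest genes. The third were CG13784 for Yp2 (0.944) and Erasp for Yp3 (0.942). For deviations from the group means, r was 0.821 to 0.905 for the 3 genes of Yp2 and 0.711 to 0.818 for the 3 of Yp3. The values of rost were 10.56 ± 0.09 in diapause, against 11.14 ± 0.21 in non-diapause heads, and those of frma 7.60 ± 0.15 in diapause, against 8.05 ± 0.14 in non-diapause heads (SD, n = 4 each). For Yp1, the nearest were the autophagy gene Atg9 (r = 0.964), Dph1 (0.921) and CG30431 (0.911), with differences of -0.17 ± 0.04, -0.11 ± 0.05 and -0.36 ± 0.11 (SE). Their r of deviations was 0.754 to 0.896. No gene named for its likeness passed limma over all probe sets, the smallest adjusted p being that of Nadk2 (0.238).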

How the data were processed

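For each array the authors deposited 1 log2 value per probe set. Per the submitters' processing notes these come from GCRMA, a background correction by probe sequence with quantile normalization and summarisation, of unstated version. Biotin-labelled cRNA came from 6 µg of total RNA. Values ran from a floor of 2.16 to 15.72, array medians, control probe sets included, from 2.70 to 2.86, and Pearson's r between arrays from 0.976 to 0.998.

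Genes were named through the array's annotation and Release 6 gene symbols. Of 18769 tested probe sets, 13647 had 1 symbol. A gene was read from the probe set with the highest mean. Groups came from the sample titles. The comparison used all 8 arrays and limma 3.58.1 (R 4.3.3; lmFit and eBayes, two-sided, no block), adjusted by Benjamini-Hochberg over all tested probe sets, at an adjusted p of 0.05. The fit was first tested on simulated data. Single genes and pairs were also tested by exact permutation over arrays. The 6 related lists and 8 marker lists were described by counts. Named were the 5 genes, list members with limma p under 0.05 or the 2 smallest p, and the 3 genes most like each of the 5 by r (SD of at least 0.05). These genes and lists were chosen with earlier results of these data known, and Yp2 and Yp3 are among the genes that the study itself singled out from these arrays. Markers, Gnmt, yl, Fbp1, Fbp2, slbo, Sxl, srp and Kr-h1 were named to describe their lists. Alternatives were a replicate block, filters on the mean (4, 6), limma-trend, a robust prior, a second quantile normalization, 2 centrings, array weights, control probe sets kept and each array left out.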

Additional observations from a re-analysis of the deposited data

Results flagged for a closer look

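Among 82 groups of 4 arrays, those of the named genes and list means above the floor, 5 held an array whose gap to the next exceeded Dixon's 95% critical share of the range of its group. Chance alone flags about 1 in 20 groups. None of the 5 genes of the report was among them. The fat body gene AkhR was 11.69 on diapause 3, against 11.32 to 11.37 on the other diapause arrays. Erasp, close to Yp3 over arrays, was 6.19 on diapause 3, against 5.78 to 5.84. Dph1, close to Yp1, was 6.86 on diapause 4, against 7.01 to 7.02. The lipoprotein gene apolpp was 15.15 on non-diapause 1, where Yp1, Yp2, Yp3 and fit were also highest, against 15.06 to 15.07 on the other non-diapause arrays. The mean of the midgut markers was 2.38 on non-diapause 3, against 12.09 to 13.48.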

How the results depend on the processing

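The differences of Yp2, Yp3, Lsp2 and fit kept their sign under all 18 alternatives, and that of Yp1 under 17. Yp1 was at -0.03 after a second quantile normalization and -0.13 after centring on array medians, and turned to 0.10 after centring on the fat body list. No alternative brought any of the 5 past the adjusted threshold. With each array left out the ranges were -0.08 to -0.06 for Yp1, -0.44 to -0.32 for Yp2, -0.29 to -0.21 for Yp3, -0.37 to -0.31 for Lsp2 and -0.98 to -0.61 for fit. Yp2 minus Lsp2 lay between -0.10 and 0.019, turning positive without diapause 2 (0.019) and without non-diapause 1 (0.0046). Lower probe sets at p under 0.01, 114 with the deposited values, were 31 with the robust prior, 207 after a second quantile normalization, 297 after centring on array medians (median over all probe sets then -0.06), 35 after centring on the fat body list and 72 to 120 with each array left out (72 without non-diapause 1, 74 without diapause 2). Higher ones, 30 with the deposited values, were 8, 26, 21, 168 and 20 to 47 under the same settings in that order (47 without non-diapause 2), and 47 with array weights. At adjusted p under 0.05 there were 2 after a second quantile normalization, 1 after centring on medians, 4 with array weights and 0 to 2 with each array left out (2 without non-diapause 2). The median r of the 10 pairs, 0.855, was 0.430 for deviations from group means and 0.570 after centring on the fat body list. After that centring r ran from -0.727 for fit and Yp1 to 0.923 for Lsp2 and Yp3. It was 0.852 for Yp2 and Yp3, 0.516 for fit and Yp2 and 0.056 for fit and Yp3. The same list mean, 11.99 to 12.46 over the arrays, was subtracted from both genes of a pair. Yp1 itself spanned 0.14, Yp3 0.45 and Lsp2 0.46. These centred r therefore also carry the subtracted mean and do not isolate covariation apart from the fat body. The deviations of same-numbered arrays correlated at -0.31, -0.62, -0.35 and 0.06, and 0 of 8 arrays correlated best with their own number. Whether same-numbered arrays were handled together is not described, and these correlations cannot settle it. With the replicate block 87 probe sets were lower at p under 0.01 and 1 of the 5 genes, Yp1, was among them. The causes were not tested. The number of arrays limits what could be detected.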
